A study of Rattus norvegicus with 8 samples.

Results

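The transcripts of the proteins of the cytosolic ribosome were followed in the rat kidney after removal of the opposite kidney. Every probe, control spots aside, was taken by its RefSeq gene symbol. The symbol had to be Rpl or Rps with a number and at most 1 letter, or Rplp0, Rplp1, Rplp2 or Rpsa. This rule uses no measured value, but it was chosen with earlier results of these data known. It gave 109 of the 41012 probes on the array, for 75 genes, of which 45 encode proteins of the large subunit and 30 proteins of the small subunit. All 75 genes, with all 109 probes, passed the brightness filter (signal well above background on 4 or more arrays) and were tested among 20950 features, a feature being a gene represented by its brightest probe or an array accession without a symbol. RefSeq holds 79 symbols of this form for the rat, and the remaining ones, Rpl26, Rpl37, Rps9 and Rps27l, were not analysed here.

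Total RNA came from right kidneys of female rats of strain F344/NSlc, 10 weeks old. Of the samples, 4 were from rats with a sham operation and 4 from rats with a unilateral nephrectomy. No allele, transgene or drug is named for either group. The series' design text places collection at day 2, but by the source names sham kidneys were taken after day 1 and nephrectomized ones after day 2; if those hold, day and operation cannot be told apart. No label says which animals the samples are from, so a p-value reflects only variation among these 8 samples, which may be technical, and in whole tissue fewer cells of a type and less RNA per cell cannot be told apart. Each of 2 slides held 2 arrays of each group, and on both the sham samples lay at positions 1 and 2 and the nephrectomized samples at positions 3 and 4, so that position and operation cannot be told apart. All 7 tubule markers and all 4 glomerulus markers looked for, among them Lrp2, Umod and Podxl, were well above background on all 8 arrays. Of 10 leukocyte markers 7 were tested, and 3 were called lower after nephrectomy by limma: S100a8 at -1.69 (log2; adjusted p = 0.0358), S100a9 at -1.40 (adjusted p = 0.0187) and Adgre1 at -0.51 (adjusted p = 0.0477). Their part in the values that follow was not tested.

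A ribosome has a small subunit, which holds the messenger RNA and reads its codons, and a large subunit, which joins the amino acids and passes the chain out through a tunnel. Each subunit is built in the nucleolus from ribosomal RNA and proteins that are needed in near equal amounts, and proteins made in excess are degraded. In vertebrates the transcripts of these proteins are among the most abundant of the cell and start with a cytosine followed by an unbroken run of pyrimidines, the terminal oligopyrimidine (TOP) tract. Through this tract, LARP1 and the growth-regulating kinase complex mTORC1 set how much of each transcript is translated, so that ribosome production can change without a change in transcript level. A kidney left alone after removal of its partner grows within days, largely by enlargement of its tubule cells, and the study's title places the comparison in that compensatory response.

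The letters around the annotated start sites show a run of C and T letters in most of the promoters examined. RefSeq promoter entries of assembly GRCr8 were matched to 60 of the 75 genes, and 15 genes had no entry. The lines below give 30 bases, 20 before the annotated start and 10 from it on, on the gene's own strand. The first 8 genes are shown because their transcripts had the most extreme changes or smallest p of the family or, for Rplp0, anchor the stalk of the ribosome. The last 4 are Rpl41, Rplp2, Rps19 and Rpl3l, whose changes were also among the most extreme. They have no run of at least 6 such letters within 5 bases of the annotated start, although Rplp2 has one farther before it. Capitals mark the run of C and T letters at the start.
Rpl14: cggcagggcgggCCCTCTCCCTTCTCgctg
Rpl39: cagcgtcttctaatcgcgTTCTTCCggcct
Rplp1: tgcgcgcaggcgcatgtgaTCCTTTCCTCa
Rplp0: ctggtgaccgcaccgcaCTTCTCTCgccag
Rpl22: cctgcgtagtgcgCCCCCCTCCCTTTCTgc
Rps27: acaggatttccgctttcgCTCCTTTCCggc
Rpl28: tgtcgccccgcccctagtgTCTTTCTTTCC
Rpl34: gcccgCCCCTTCCTTTTCCTCTTCCgggga
Rpl41: gaaggggcggctcggaagtgacgacaccaa
Rplp2: atcttcctttcgccgccggacgccgccgag
Rps19: cgacgcccgacttgtgcgcccgggaaaccc
Rpl3l: catttgacctctggtgcctggtggggaggt
The stretches lie at chr8:129163600-129163629 (plus strand) for Rpl14, chrX:121195887-121195916 (minus) for Rpl39, chr8:71290863-71290892 (minus) for Rplp1, chr12:46718381-46718410 (minus) for Rplp0 and chr5:168117941-168117970 (plus) for Rpl22. They lie at chr7:1563488-1563517 (minus) for Rpl41 and chr1:205975901-205975930 (plus) for Rplp2. They lie at chr2:177964597-177964626 (minus) for Rps27, chr1:78083523-78083552 (minus) for Rpl28, chr2:221962274-221962303 (minus) for Rpl34, chr1:89608668-89608697 (plus) for Rps19 and chr10:14258426-14258455 (plus) for Rpl3l.

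A run of at least 6 C or T letters, searched on the transcript's strand and reaching to within 5 bases of the annotated start, was present in 42 of the 60 promoters (70.0%). The same was found in 5128 of all 27457 promoters (18.7%) and in 10 of the 60 matched promoters of mitochondrial ribosomal protein genes (16.7%). Counting runs of any length there, the longest had a median of 10 letters among the ribosomal protein genes and 3 letters among all promoters. A stricter pattern, a C at the start base with at least 4 C or T letters after it, which overlaps the first, was found in 23 of 60 promoters (38.3%) against 722 of all promoters (2.6%). It was in 16 of the 37 matched large-subunit promoters and in 7 of the 23 small-subunit promoters. The first pattern also counts runs that end before the annotated start and so lie outside the annotated transcript. Only the stricter one requires a C at the start base, as in the TOP tract described above. Both patterns describe letters at or near annotated starts, whose positions can be off by some bases. The 42 genes with a run by the first pattern had a median log2 change of 0.03 after nephrectomy (range -0.29 to 0.21). The 18 genes without one that near the start, some of which have a run farther before it, had a median of 0.04 (range -0.25 to 0.14).

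No ribosomal protein transcript passed the test between the nephrectomized and the sham kidneys, and the estimated differences were small. No gene of the 75 was called higher and none lower (limma, adjusted over all features, threshold 0.05), beside 157 features called higher (0.749%) and 60 called lower (0.286%). At those shares fewer than 1 of 75 genes would be called, so the absence of calls is near the background. At an unadjusted p under 0.05, 1 of the 75 genes passed, Rpl14, against 3361 of 20950 features (16.0%). Sham and nephrectomized values did not overlap in 0 of the 75 genes, against 2330 of the 20933 features with a value on every array (11.1%). Both counts lie below the background share, and that gap itself was not tested.

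**Figure D1:**
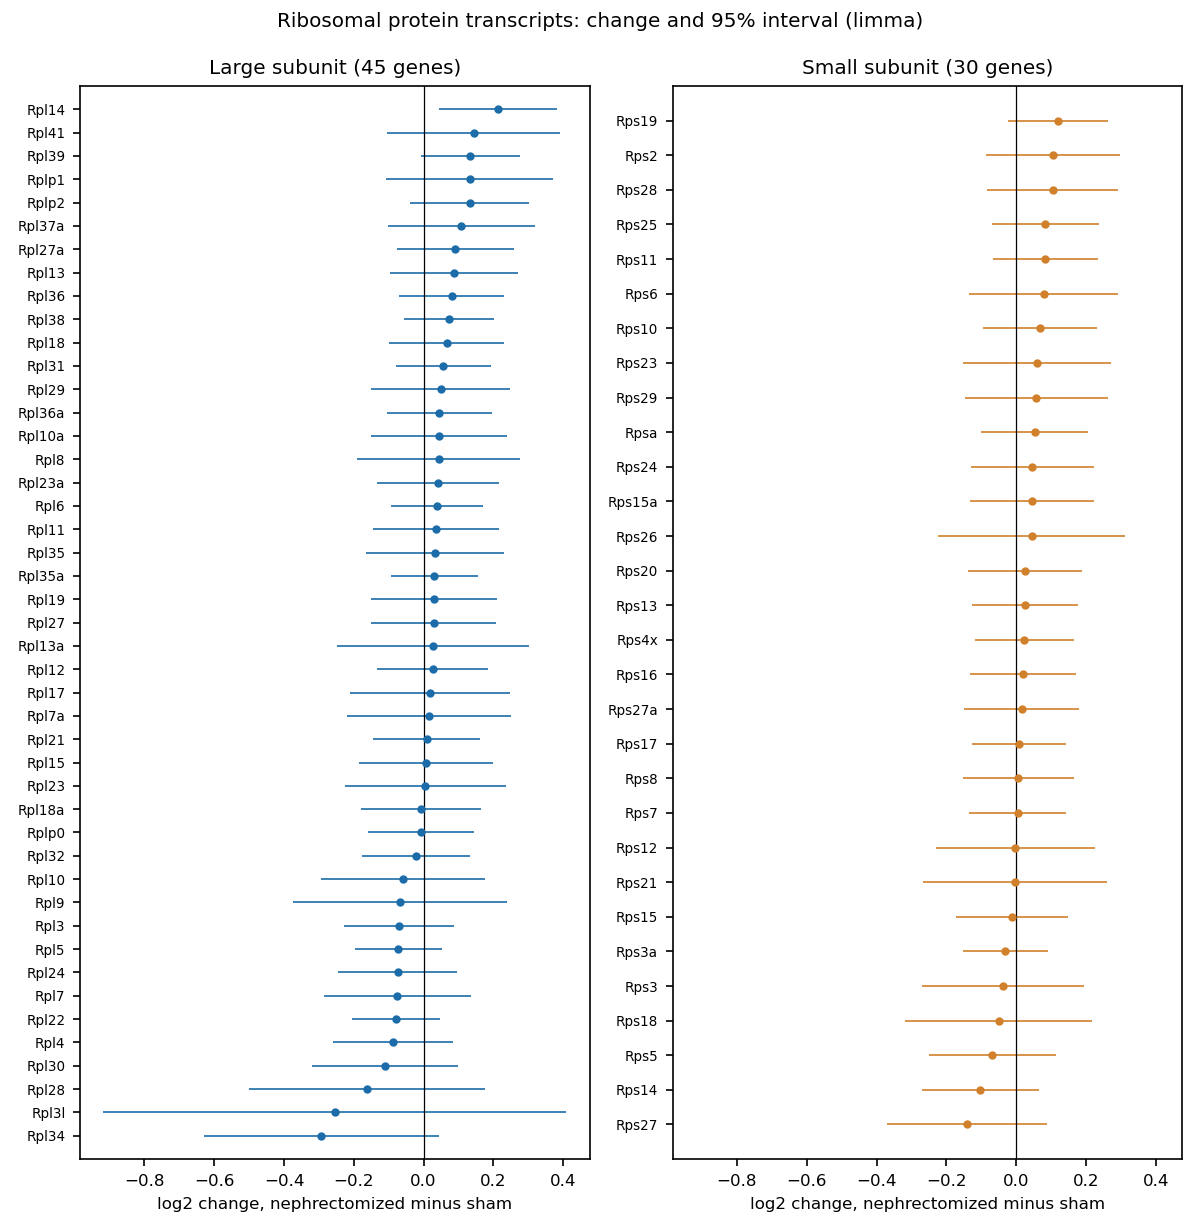
Log2 change (nephrectomized minus sham, x axis) of the 45 large-subunit genes (left) and the 30 small-subunit genes (right), ordered by size. Points are limma estimates from 4 arrays a group and bars their 95% intervals; the intervals of all genes but Rpl14 include 0, and those of Rpl34 and Rpl3l are among the widest.

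The changes of the 75 genes had a median of 0.03 on the log2 scale, with quartiles of -0.02 and 0.06 and a full range from -0.29 (Rpl34) to 0.21 (Rpl14). The median of all features was 0.01. The members' median was above 0 in the fit described and below it under normexp background correction (-0.0058), quantile (-0.03) and cyclic loess normalization (-0.04), so no direction is given for the family. Of the 75 changes 51 were positive (68%), against 52.5% of all features. The direction also differed between slides, with a median of 0.04 on the first and -0.008 on the second. Without the third sham array the median was -0.0067 and without the first nephrectomized array -0.0092.

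Within the fit described, the intervals bounded these differences. They do not include shifts between processing settings. For Rpl12 the interval ran from -0.13 to 0.19, and 1 alternative on both slides gave -0.15. Signals were relative to each array's 75th percentile, so RNA per cell was not measured. The 95% interval of the change lay within 0.25 of 0 on the log2 scale, a 1.19-fold difference either way, for 44 of the 75 genes (58.7%), against 29.4% of all features. It lay within 0.5, or 1.41-fold, for 73 of the 75 (97.3%), against 77.0% of all features, the exceptions being Rpl34 and Rpl3l. Within 1, or 2-fold, lay all 75 intervals. The spots were bright, 72 of the 75 genes being in the brightest 10% of features, which describes the signal of the probes and not the abundance of the transcripts. None of the probes was saturated on any array. The residual SD of a member had a median of 0.103, against 0.132 over all features.

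Among large-subunit proteins, Rpl14, which has no bacterial counterpart, had the largest positive change and the smallest p of the 75. Its log2 signal relative to the array's 75th percentile was 7.53, 7.49, 7.55 and 7.69 in sham replicates 1 to 4 and 7.67, 7.90, 7.72 and 7.83 in nephrectomized replicates 1 to 4. The nephrectomized values were the higher ones except that the highest sham array (replicate 4) exceeded the lowest nephrectomized array (replicate 1). The change was 0.21 ± 0.07 (SE, n = 4 a group; 95% interval 0.05 to 0.38), a 1.16-fold difference, and it was not called (limma, adjusted p = 0.207). It was 0.27 on slide 1 and 0.15 on slide 2. Rpl41, a very short basic protein at the interface of the subunits, had a difference of 0.14 ± 0.11 (SE; limma, adjusted p = 0.565). It was 0.05 without the third sham array and 0.04 with quantile normalization.

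Rpl39 lies in the wall of the exit tunnel. Its log2 signal was 6.68, 6.78, 6.61 and 6.76 in the sham arrays and 6.87, 6.91, 6.77 and 6.81 in the nephrectomized arrays. The groups met at their edges, the lowest nephrectomized array lying between the 2 highest sham arrays, and the change was 0.13 ± 0.06 (SE; limma, adjusted p = 0.337), or 0.07 with cyclic loess normalization. Of the 8 listed proteins around the tunnel exit 7 were on the array, 6 of them with a positive change, and their median was 0.03, which had the opposite sign under 7 of 24 alternatives, quantile and cyclic loess normalization among them. The seventh, Rpl22, an RNA-binding protein, had a change of -0.08 ± 0.05 (SE; limma, adjusted p = 0.530). Its signal was 4.62, 4.67, 4.66 and 4.72 in the sham arrays and 4.67, 4.53, 4.58 and 4.58 in the nephrectomized arrays, of which the first overlapped the sham values.

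The stalk of the large subunit recruits translation factors. It is made of pairs of the acidic proteins Rplp1 and Rplp2 on the anchor Rplp0, with Rpl12 at its base. The log2 signal of Rplp1 was 8.89, 9.03, 8.74 and 8.88 in the sham arrays and 9.15, 9.16, 9.0 and 8.76 in the nephrectomized arrays, so that 2 nephrectomized arrays lay within the sham range. Rplp2 was at 6.74, 6.82, 6.56 and 6.77 in the sham arrays and at 6.94, 6.91, 6.82 and 6.76 in the nephrectomized arrays, with 1 nephrectomized array inside the sham range and another just at its top. Both changes came to 0.13, with an SE of 0.10 for Rplp1 and 0.07 for Rplp2 (limma, adjusted p = 0.582 and 0.430). With quantile normalization they were 0.0044 and 0.07, and the median of the stalk genes turned from 0.08 to -0.02. Rplp0, often used as a reference transcript, had a difference of -0.01 ± 0.07 (SE), with an interval from -0.16 to 0.14. Rpl12 had a difference of 0.03 ± 0.07 (SE), and its sign turned under 9 of the 24 alternatives. None of the 4 stalk genes was called.

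Rpl5 and Rpl11 bind 5S ribosomal RNA and, when not built into ribosomes, inhibit Mdm2, the ubiquitin ligase of p53. Rpl5 was at 6.05, 6.13, 6.05 and 6.08 in the sham arrays and at 6.09, 5.99, 5.94 and 6.01 in the nephrectomized arrays, a change of -0.07 ± 0.06 (SE; limma, adjusted p = 0.568). The first nephrectomized array again lay within the sham range. Rpl11 had a difference of 0.04 ± 0.08 (SE; limma, adjusted p = 0.874), with its highest value, 7.0, in the first nephrectomized array and its lowest, 6.69, in the third.

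The lowest changes also fell among large-subunit genes. Rpl34, which has no bacterial counterpart, was at 4.70, 4.76, 4.72 and 4.6 in the sham arrays and at 4.39, 4.63, 4.64 and 3.95 in the nephrectomized arrays. The last of these stood well below the others, and 2 of the nephrectomized arrays lay inside the sham range. The change was -0.29 ± 0.15 (SE; 95% interval -0.63 to 0.04; limma, adjusted p = 0.374), and over the 24 alternatives it ranged from -0.37 to -0.14, never past the threshold. Rpl28, a protein that budding yeast lacks, was at 5.73, 5.81, 5.53 and 5.67 in the sham arrays and at 5.82, 5.11, 5.70 and 5.46 in the nephrectomized arrays. Its change of -0.16 ± 0.15 (SE; limma, adjusted p = 0.640) rested mostly on the second nephrectomized array, without which it was -0.02. Rpl30 had a change of -0.11 ± 0.09 (SE; limma, adjusted p = 0.601), or -0.06 without the third nephrectomized array.

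Rpl3l, a form of Rpl3 known from heart and skeletal muscle, was the one dim member. Its log2 signal was -3.99, -3.89, -3.75 and -3.72 in the sham arrays and -3.78, -5.08, -3.83 and -3.67 in the nephrectomized arrays, and it was well above background on 4 of 4 and 3 of 4 arrays. Without the second nephrectomized array its change of -0.25 ± 0.29 (SE; limma, adjusted p = 0.719) became 0.08, and with normexp background correction it was 0.09. The form found in all cells, Rpl3, was measured on all 8 arrays and had a change of -0.07 ± 0.07 (SE).

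**Figure D2:**
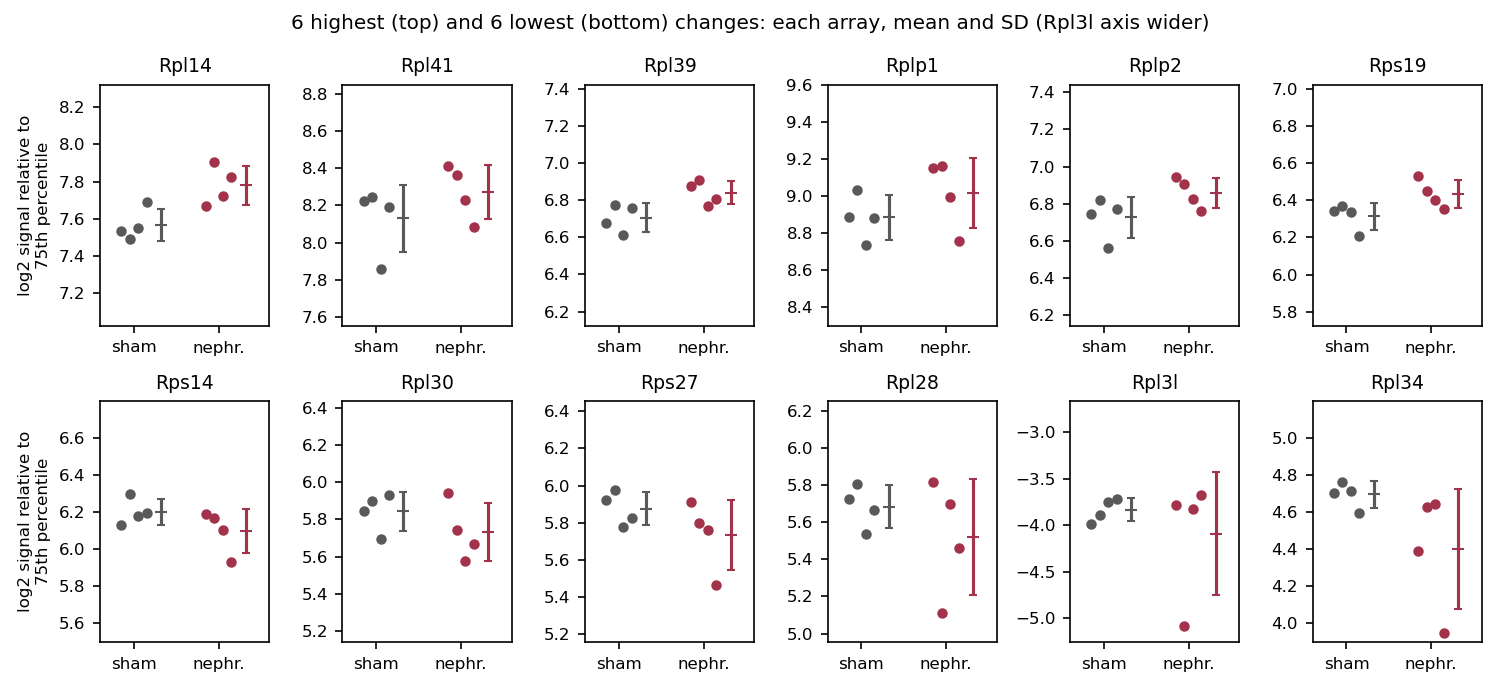
Log2 signal relative to each array's 75th percentile (y axis) of the 6 ribosomal protein genes with the highest changes (top) and the 6 with the lowest (bottom) in the sham and nephrectomized (nephr.) arrays. Points are single arrays, replicates 1 to 4 from left to right, and bars the mean with its SD; the groups overlap in every panel, and single low nephrectomized arrays stand out for Rpl34 (3.95), Rpl28 (5.11) and Rpl3l (-5.08).

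Among small-subunit proteins the changes were narrower, from -0.14 (Rps27) to 0.12 (Rps19). Rps19, mutated in Diamond-Blackfan anaemia, was at 6.34, 6.37, 6.34 and 6.21 in the sham arrays and at 6.53, 6.45, 6.40 and 6.36 in the nephrectomized arrays. Only the lowest nephrectomized array fell within the sham range, and the change was 0.12 ± 0.06 (SE; limma, adjusted p = 0.392), or 0.06 with cyclic loess normalization. Rps27, a zinc-binding protein, was at 5.92, 5.98, 5.78 and 5.83 in the sham arrays and at 5.91, 5.80, 5.76 and 5.47 in the nephrectomized arrays. The fourth nephrectomized array was the lowest of the 8 and 2 others lay inside the sham range, and the change was -0.14 ± 0.10 (SE; limma, adjusted p = 0.537), or -0.05 without that array. Rps14, whose loss of 1 copy underlies the anaemia of the 5q- syndrome, had a difference of -0.10 ± 0.07 (SE; limma, adjusted p = 0.544), and without the fourth nephrectomized array it was -0.05.

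Rps2 and Rps3 line the channel through which messenger RNA enters the small subunit, and their changes were 0.11 ± 0.08 and -0.04 ± 0.10 (SE), neither of them called. The platform proteins Rps14, Rps26, Rps28 and Rpsa had a median of 0.05, with 3 of the 4 changes positive, against 52.5% of all features. Their median was 0.11 on slide 1 and -0.02 on slide 2. Rps6 is the substrate of the S6 kinases downstream of mTORC1. Its log2 signal was 8.0, 8.13, 7.75 and 8.14 in the sham arrays and 8.15, 8.14, 8.03 and 8.02 in the nephrectomized arrays. The nephrectomized arrays lay among the 3 higher sham arrays or just above them, the third sham array being the lowest of the 8, and the change was 0.08 ± 0.09 (SE; limma, adjusted p = 0.731).

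Some ribosomal proteins are made as fusions with a ubiquitin-like protein or carry other names. Rps27a, made as a fusion with ubiquitin and a member by its symbol, had a difference of 0.02 ± 0.07 (SE; limma, adjusted p = 0.943). Outside the symbol rule, Fau, which encodes a small-subunit protein fused to a ubiquitin-like one, had a difference of -0.0022 ± 0.10 (SE), and Rack1, the signalling scaffold on the small subunit, one of -0.04 ± 0.08 (SE).

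The large and the small subunit gave like values. The median change was 0.03 for the 45 large-subunit genes, 30 of them positive, and 0.02 for the 30 small-subunit genes, 21 of them positive, with the medians of both below 0 under normexp, quantile and cyclic loess settings as for the whole family. The large minus the small median was 0.0044. Taken array by array, as the median over genes of each gene's deviation from its own 8-array mean, the large minus the small subunit came to 0.0207, -0.0129, -0.0045 and -0.0063 in the sham arrays. It came to 0.0054, -0.0007, 0.0313 and -0.0231 in the nephrectomized arrays. The mean of this difference was -0.00075 ± 0.0147 (SD, n = 4) in the sham group and 0.00323 ± 0.0224 (SD, n = 4) in the nephrectomized group, closer together than the arrays within either group.

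The ribosomal protein genes did vary together from array to array. The median deviation of the 75 genes was -0.01, 0.06, -0.12 and 0.02 in sham replicates 1 to 4 and 0.11, 0.07, -0.02 and -0.07 in nephrectomized replicates 1 to 4. The span of 0.23 between the lowest and the highest array exceeded the difference between the group means, -0.01 ± 0.08 (SD, n = 4) in the sham and 0.02 ± 0.08 (SD, n = 4) in the nephrectomized group. In the third sham array only 6 of the 75 genes were above their own mean, and in the first nephrectomized array 70 were. The large and small subunits moved together here, at -0.12 and -0.12 in the third sham array and 0.11 and 0.10 in the first nephrectomized array. By slide, each with its own scan session, the 4 arrays of slide 1 lay between -0.01 and 0.11 and those of slide 2 between -0.12 and 0.02. With slide as a block no ribosomal protein gene was called either, and the part of the slide in this variation was not tested. Over all features the medians per array stayed between -0.01 and 0.01. Each array had been set to its own 75th percentile, so medians near 0 over all features follow largely from the processing.

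**Figure D3:**
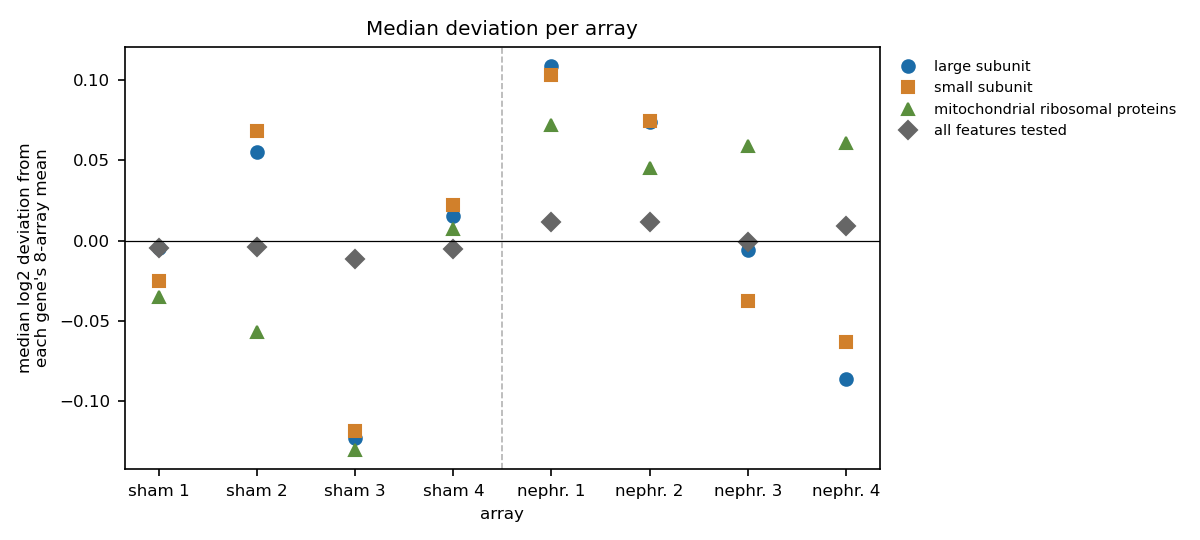
Median log2 deviation from each gene's 8-array mean (y axis) on each array (x axis; nephr., nephrectomized; dashed line between the groups) for the large-subunit genes (circles), small-subunit genes (squares), mitochondrial ribosomal protein genes (triangles) and all features tested (diamonds). Circles and squares lie close together on every array and span -0.12 to 0.11 with the groups interleaved; the circle of sham 1 (-0.0047) lies behind the diamond.

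Gene by gene the order of the arrays repeated. The third sham array was the lowest of its group in 60 of the 75 genes, against 31.5% of all features, and the second was the highest in 46, against 18.7%. In the nephrectomized group the first array was the highest in 51 genes, against 26.2% of all features, and the fourth was the lowest in 44, against 23.0%. Other features in the brightest 10% had a median deviation of -0.11 on the third sham array and 0.07 on the first nephrectomized array, and of 0.01 and -0.02 on the second sham and the fourth nephrectomized arrays. The fourth nephrectomized array had the lowest 75th-percentile signal of the 8 (388, against 457 to 643) and the largest share of probes well above background (66.1%, against 59.5% to 63.4%). The part of these measures in the shared variation was not tested. The span of the ribosomal protein medians was 0.08 after quantile normalization and 0.12 after cyclic loess normalization, and 0.25 with normexp background correction.

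With each array set to the median of its ribosomal protein genes, a scaling chosen after these medians were seen, Rpl34 had the smallest p of the 75. Its change relative to the other ribosomal protein transcripts was then -0.33 (unadjusted p = 0.0417, limma, adjusted p = 0.406), and no ribosomal protein gene was called. Over all features the calls were 20 higher and 21 lower with this scaling, against 157 and 60 with the 75th percentile.

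Several genes had more than 1 probe, which allows a check within the gene. Of the 25 genes with 2 or more tested probes, 14 had probes with changes of both signs, as changes this near 0 allow. The range between the probes of a gene had a median of 0.05 and was widest for Rps15a, at 0.203, and the 95% intervals of the probes overlapped in every one of the 25 genes. Of all 109 probes, 3 passed an unadjusted p under 0.05, against 3906 of 25250 probes tested, and 0 were called. These were the probe of Rpl14 and single probes of Rpl29 (0.16) and Rpsa (0.14) that were not the brightest of their genes. Rpl5 had 3 probes, all negative, from -0.09 to -0.07, and Rpl29 had 4, all positive, from 0.05 to 0.16. The groups did not overlap at 4 of the 109 probes, 2 of Rpl29 and 1 each of Rps2 and Rpsa, against 10.7% of all probes tested. Many ribosomal protein genes have near-identical processed pseudogenes in mammals, so cross-hybridisation to such copies is a limit of each of these probes.

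Genes that work beside the ribosome were taken from lists, and in the fit described no gene of these was called. The 6 elongation factors had a median change of 0.0039, with Eef1a1, which brings the loaded transfer RNA, at -0.21 and Eef1g, a subunit of its exchange factor, at 0.11. Of 30 initiation factors 16 were positive, with a median of 0.0078, and 6 passed an unadjusted p under 0.05, near the background share of 16.0%. Both medians were below 0 under normexp, quantile and cyclic loess settings. The 17 other transcripts known to carry a TOP tract include Fau, Rack1, Eef1a1, Eef1b2, Eef1d, Eef1g and Eef2, already given or counted above. Among the 17, 5 were positive, with a median of -0.03, which turned positive under 1 of 24 alternatives. An unadjusted p under 0.05 was reached by 5 of the 17, beside 16.0% of all features. They included 4 of the initiation factors just counted, Eif4b (-0.28), Eif3h (-0.23), Eif3e (-0.19) and Eif3f (-0.14). The remaining gene is not reported here, so these 4 do not give a direction for the list. The log2 signal of Eif4b, which helps unwind messenger RNA at the start of translation, was 3.51, 3.25, 3.18 and 3.25 in the sham arrays and 3.24, 2.96, 3.03 and 2.86 in the nephrectomized arrays, overlapping at 1 array.

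The lists for ribosome production and its control, for ribosomal stress and for tRNA synthetases showed the same absence of calls. Of 34 tested nucleolar biogenesis factors 15 were positive, against 52.5% of all features, with a median of -0.02. At an unadjusted p under 0.05, 3 of the 34 passed, against 16.0% of all features. Among 9 regulators of ribosomal protein translation 1 passed an unadjusted p under 0.05, Mtor, the kinase of mTORC1, at 0.14. Among 10 chaperones and importers of ribosomal proteins the one to pass it was Grwd1, a chaperone, at -0.29. Of 9 genes of the p53 response to ribosomal stress 4 passed it, the p53 targets Ccng1 (0.32), Phlda3 (0.31), Bax (0.17) and Mdm2 (-0.17). Ccng1 came nearest to a call (limma, adjusted p = 0.0934), at 2.88, 2.88, 2.78 and 3.03 in the sham arrays and 3.06, 3.24, 3.29 and 3.26 in the nephrectomized arrays, which did not overlap. Under an alternative at most 1 of these 9 genes was called. Of the 19 cytosolic tRNA synthetases 10 were positive and none passed an unadjusted p under 0.05.

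The mitochondrial ribosome, which translates the few messages of the mitochondrial genome, is built from separate nuclear genes. Of its 66 tested protein genes 57 had a positive change (52.5% of all features), with a median of 0.11 that stayed positive under all 24 alternatives (0.08 to 0.13), where the cytosolic median was 0.03 and changed sign. At an unadjusted p under 0.05, 21 of the 66 passed, beside 16.0% of all features and 1 of the 75 cytosolic genes. Sham and nephrectomized values did not overlap in 20, beside 11.1% of all features and 0 of the cytosolic genes. No mitochondrial ribosomal protein gene was called in the fit described, and up to 4 were called under an alternative. Their median deviation per array had a mean of -0.05 ± 0.06 (SD, n = 4) in the sham group and 0.06 ± 0.01 (SD, n = 4) in the nephrectomized group. On the third sham array both families were low, at -0.13 and -0.12, and on the fourth nephrectomized array the mitochondrial median was 0.06 and the cytosolic one -0.07. The difference between the families was not tested.

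**Figure D4:**
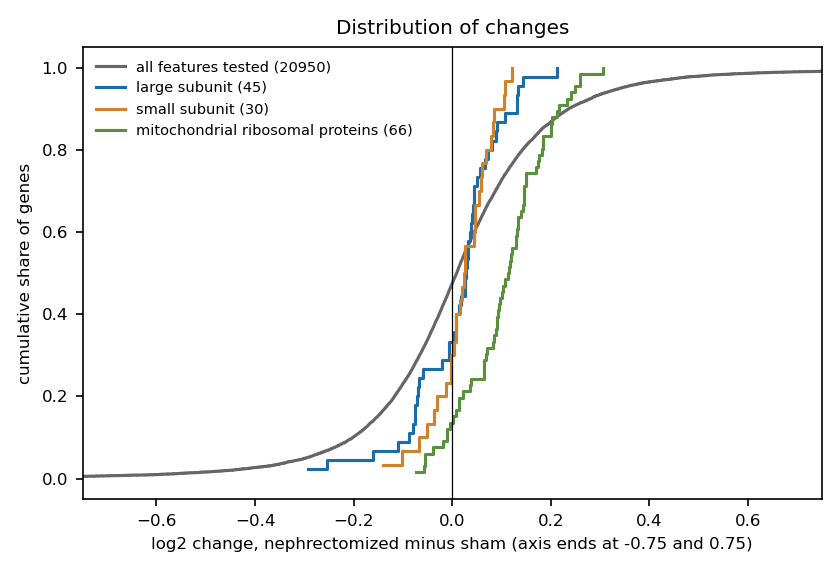
Cumulative share of genes (y axis) by log2 change, nephrectomized minus sham (x axis, from -0.75 to 0.75), for the large-subunit genes (45), small-subunit genes (30), mitochondrial ribosomal protein genes (66) and all features tested (20950). The curves of both cytosolic subunits rise steeply near 0, with medians of 0.03 and 0.02 whose sign turned under quantile and other scalings, and that of the mitochondrial genes lies to the right, with a median of 0.11.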

How the data were processed

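Right-kidney RNA in 4 samples from sham-operated and 4 from nephrectomized rats was labelled with Cy3 and hybridised to 1-colour Agilent arrays, per the labels' protocols. The arrays were then read with Agilent's Feature Extraction (version 10.5.1.1 in the file headers). The authors' deposited scanner files hold each spot's processed signal, a linear intensity from which background and spatial trends of that array had been removed, per the file headers. In the deposited table of the series, values are log2. Set against the scanner values, they were relative to the 75th percentile and to each probe's median over arrays, in the same direction, with column medians of -0.0145, -0.00235, -0.000988 and -0.00954 (sham replicates 1 to 4) and 0.00116, 0.0122, -0.000822 and 0.0154 (nephrectomized replicates 1 to 4). The array's design names an older rat assembly than GRCr8, so that coordinates are those of the RefSeq promoter table alone.

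From the processed signal, log2 values minus each array's 75th percentile were computed. Of 45018 spots, 1639 control spots and spots marked as outliers were left out. Probes were named through RefSeq accessions (18713 of 41012 with a symbol), tested if well above background on at least 4 arrays, and the brightest stood for its gene. The comparison of nephrectomized with sham used limma (version 3.58.1; R version 4.3.3; lmFit, eBayes, 6 residual and 2.37 prior degrees of freedom, no covariates), with Benjamini-Hochberg adjustment over 20950 features. The code was tested on simulated data. The number of arrays limits the precision. The normexp alternative used the median spot signal with an offset of 50.

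The members and lists were chosen with earlier results of these data known. Genes named were the 6 members with the highest change, the 6 with the lowest, the 6 with the smallest p, the listed stalk, 5S-binding, entry-channel and paralog genes, and Rps27a, Rps6, Fau and Rack1. A further gene of the rule is not reported here. Rpl3, Rpl29, Rpsa, Rps15a and the genes named from the other lists were chosen after their values were seen.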

Additional observations from a re-analysis of the deposited data

Results flagged for a closer look

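Each group of 4 arrays was examined for the 24 named genes and for the per-array medians of the family, of each subunit and of the large minus the small subunit. Of these 56 groups, 3 (5.36%) held an array whose gap to its nearest neighbour took more of the group's range than Dixon's 95% critical value for 4 samples. Chance gives about 1 in 20 groups. Rplp0, the stalk anchor, was at 3.31 in sham replicate 3, with the other 3 sham arrays all at 3.48 (gap over range 0.969). Rpl41 was at 7.86 in the same array, with the others from 8.19 to 8.25 (0.856). Rpl3l was at -5.08 in nephrectomized replicate 2 (0.892), where it was not well above background.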

How the results depend on the processing

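No ribosomal protein gene was called higher or lower under any of 24 alternatives (background, normalization, filter, probe choice, variance model, array weights, blocks, single slides, the deposited table, each array left out, and 1 scaling chosen after seeing the data). Not all of these are separate checks. The single-slide fits called 0 features of any kind, and the deposited table holds nearly the same values as the scanner files. The median change of the family ranged from -0.0092 to 0.0545 with 1 array left out, that of the large subunit from -0.0124 to 0.0585, that of the small subunit from -0.0066 to 0.0515 and their difference from -0.0138 to 0.0197. The family's median was below 0 under 8 alternatives, in each case having moved by less than the SD between arrays of 0.0806. Besides those given above these were array weights (-0.0052) and the scaling to the ribosomal protein median (-0.0105). That scaling sets the family's median near 0 by construction, so the sign under it carries no information. Of 24 named genes 9 changed sign under at least 1 alternative, and none of 575 values passed the threshold. Rpl3l was not tested with a filter on all 8 arrays.

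Same-numbered samples shared a slide and scan session, but were not taken as pairs, since their deviations correlated at 0.141, 0.0109, -0.0582 and -0.209 for replicates 1 to 4. With the replicate block the family's median was 0.0257 with 0 genes called, and calls over all features fell from 157 higher and 60 lower to 6 and 4. These calls also depended on other choices: 69 and 31 with slide as a block, 0 and 0 on either slide alone, 17 and 3 with no filter on dim probes, 295 and 99 with a filter on all 8 arrays, 307 and 102 with array weights, and 398 and 132 with trended and robust variances. Leaving out any one of the 8 arrays lowered at least 1 of both counts by over 1.5 times, and the counts then ranged from 18 to 162 higher and from 4 to 35 lower. The number of arrays limits all of these.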
